A study of Mus musculus with 16 samples.

Results

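The genes described here are the Nr5a and Nr0b orphan nuclear receptors of the mouse, namely Nr5a1, Nr5a2, Nr0b1 and Nr0b2. They were taken as every probe set of the array that the platform annotation assigns to exactly 1 of these symbols. All 4 genes were measured, with 8 probe sets among 45037 non-control probe sets, and they are 4 of the 18194 genes tested. Nr5a1 had 2 probe sets, Nr5a2 had 4, and Nr0b1 and Nr0b2 had 1 each.

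Transcripts were measured on 16 microarrays, 1 for each newborn XX ovary, with 4 ovaries of each genotype, to ask what the ovary loses without Runx1, without Foxl2 and without both. The double knockout (DKO) was Runx1-/f Foxl2-/- with 1 copy of an Sf1-cre transgene, the Runx1 KO was Runx1-/f Foxl2+/+ with the same transgene, the Foxl2 KO was Runx1+/f Foxl2-/- without it, and the Control was Runx1+/f Foxl2+/+ without it. All ovaries carried 1 floxed Runx1 allele, came from the same kind of cross on a mixed background, and had been freed of the mesonephros. The Cre is driven from Nr5a1 sequences, acts in somatic cells of the gonad, and was present in all DKO and Runx1 KO ovaries and in none of the others, so Runx1 loss and the transgene cannot be told apart.

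NR5A1 (steroidogenic factor 1) and NR5A2 (liver receptor homolog 1) are close relatives that bind the same short DNA element as single molecules and activate genes of steroid synthesis and gonad development. NR5A1 is needed for gonads and adrenals to form, and NR5A2 is known in the ovary as a factor of granulosa cells that ovulation depends on. NR0B1 (DAX1) and NR0B2 (small heterodimer partner) lack the usual DNA-binding domain and are known to bind NR5A proteins and lower their activity.

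Values are the deposited linear intensities, and levels are log2 of intensity plus 16, given as mean ± SD over 4 ovaries. Differences are log2 differences ± SE from one limma fit over all genes, with a call where the adjusted p was under 0.05. The median intensity per array was between 134 and 177. Foxl2 read 570 to 839 in DKO, 2641 to 3585 in Runx1 KO, 484 to 890 in Foxl2 KO and 2774 to 4241 in Control, and it was called lower in DKO and Foxl2 KO against Control. Runx1 read 2111 to 2370 in DKO, 932 to 2127 in Runx1 KO, 2356 to 3054 in Foxl2 KO and 2142 to 2359 in Control, and it was called in no comparison with Control. Whether its probe set lies in the deleted part is not given in the sources used here. Ovarian markers were present, with 15 of 15 pre-granulosa and 16 of 16 oocyte genes measured and 11 or more of each above the highest Y-linked gene in every group. Control replicate 4 stood apart in a list of 7 measured red cell genes, whose summed intensity was 14169 there and 343 to 652 in the other arrays. All calls of the receptors against Control given below also held without this ovary.

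In a check on background, 7 Y-linked genes, which XX ovaries lack, had mean log2 levels of 4.51 to 8.30. The highest was the probe set of Sry, of a type that can bind several transcripts, and the next was Usp9y at 6.16. The main Nr5a1 probe set lay above all of them in every group. The second Nr5a1 probe set had a mean of 7.88 in Control, below Sry, and of 8.37 in Foxl2 KO. Nr5a2 in DKO and Foxl2 KO and Nr0b2 in every group lay below the Sry probe set, and Nr5a2 lay near Usp9y in DKO and Foxl2 KO, so its low values there are near background and its fold changes depend on the offset and the probe set. The single Nr0b1 probe set had a mean below Sry in Control only.

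**Figure D1:**
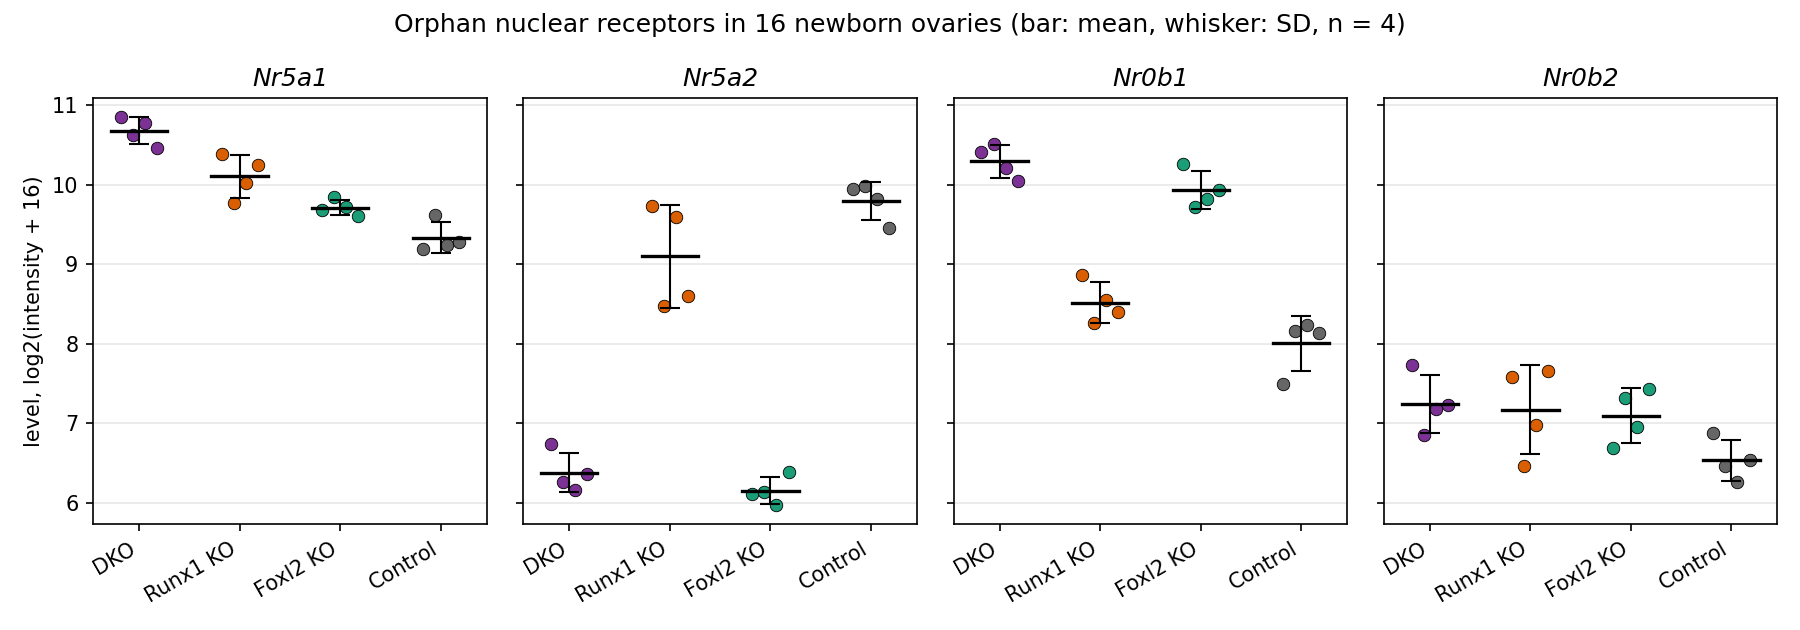
Level of each receptor, as log2(intensity + 16), in each of 16 newborn ovaries, with DKO, Runx1 KO, Foxl2 KO and Control from left to right; points are ovaries, bars are means and whiskers are SD (n = 4 each). Nr5a1 is highest in DKO, Nr5a2 is low and Nr0b1 high in both groups without Foxl2, and the groups overlap for Nr0b2.

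Nr5a2 was the receptor with the largest difference between genotypes. It fell 10.7-fold in DKO and 12.5-fold in Foxl2 KO against Control, as measured, and its level in Runx1 KO overlapped that in Control. Because the arrays measured whole ovaries, fewer cells of a type and less RNA per cell cannot be told apart, here and in the results that follow. The probe set that stands for the gene read 90.6, 60.9, 55.8 and 66.4 in DKO, 832, 340, 755 and 371 in Runx1 KO, 53.4, 54.6, 47.0 and 68.1 in Foxl2 KO, and 968, 994, 888 and 684 in Control. Every DKO and Foxl2 KO ovary lay below every Runx1 KO and Control ovary, with no overlap. Of all genes, 2.71% had every DKO value and 2.23% every Foxl2 KO value below Control, and 2.71% had every DKO value below Runx1 KO. The mean log2 level was 6.38 ± 0.25 in DKO, 9.10 ± 0.65 in Runx1 KO, 6.16 ± 0.17 in Foxl2 KO and 9.80 ± 0.24 in Control (SD, n = 4 each).

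In the fit, Nr5a2 differed by -3.64 ± 0.25 in Foxl2 KO against Control (adjusted p = 7.66e-07) and by -3.42 ± 0.25 in DKO against Control (adjusted p = 1.91e-06), and it ranked sixth by p among all genes in both comparisons. Against Runx1 KO, in which both groups carried Cre, DKO was lower by -2.72 ± 0.25 (6.57-fold, adjusted p = 4.01e-05). Between the groups without Foxl2, DKO and Foxl2 KO, the difference was 0.23 ± 0.25 with a 95% interval of -0.31 to 0.76 (adjusted p = 1.00), at levels near the Y-linked background.

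In this probe set the Runx1 KO ovaries had the largest SD of the 4 groups on the log2 scale. In the other 3 Nr5a2 probe sets DKO or Foxl2 KO, both near background, had a larger SD. Runx1 KO had a larger SD than Control in all 4 probe sets. In the main probe set, Runx1 KO replicates 1 and 3 read within the Control range. Replicates 2 and 4 lay below every Control ovary in the main probe set and in the next brightest. The difference from Control was -0.70 ± 0.25 (95% interval -1.24 to -0.16) and was not called (adjusted p = 0.545). The interaction term, which asks whether the difference that goes with Runx1 loss and Cre depends on Foxl2, was 0.93 ± 0.36 for Nr5a2 (unadjusted p = 0.0201, adjusted p = 0.886). Tested on their own, the other 3 probe sets gave 1.01, 0.05 and -0.31 from brighter to dimmer, none called.

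The 4 Nr5a2 probe sets fell together in the groups without Foxl2. Against Control, they differed by -1.58 to -3.64 in Foxl2 KO and by -1.84 to -3.42 in DKO, and each of them was called in both comparisons and in DKO against Runx1 KO (-1.82 to -2.72) when all probe sets were tested on their own. The called share of all probe sets was 0.904% in Foxl2 KO and 1.23% in DKO against Control, and 0.513% in DKO against Runx1 KO. In every one of them all DKO and Foxl2 KO ovaries lay below all Control ovaries. The brighter probe sets showed the larger falls, and the dimmer ones read only 220 to 339 in Control. In Runx1 KO against Control the 4 probe sets gave -0.70, -0.53, -0.05 and 0.06, and none was called, where 0.0577% of all probe sets passed. Over the 16 arrays the probe sets correlated with each other at r = 0.91 to 0.98, and at 0.43 to 0.78 once group means had been removed.

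**Figure D2:**
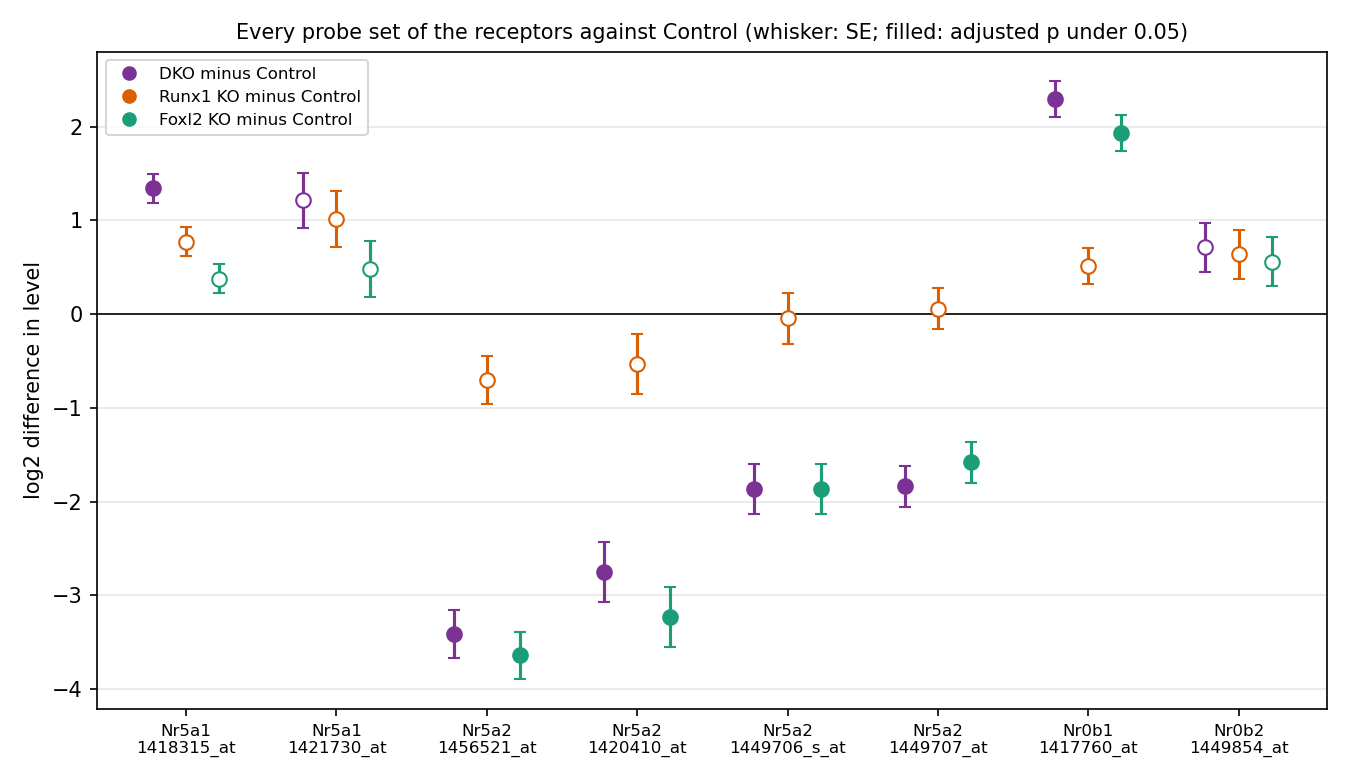
Log2 difference from Control (± SE) for each of the 8 probe sets, with DKO, Runx1 KO and Foxl2 KO side by side; filled points passed an adjusted p under 0.05 over all probe sets. The 4 Nr5a2 probe sets fall by 1.58 or more in DKO and Foxl2 KO, and the second Nr5a1 probe set gives 1.21 in DKO without passing.

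Nr0b1 moved the other way. It rose 3.81-fold in Foxl2 KO and 4.89-fold in DKO against Control, and every knockout ovary of the 3 genotypes read above every Control ovary. The intensities were 1344, 1448, 1171 and 1041 in DKO, 449, 290.2, 359 and 320.5 in Runx1 KO, 1209, 825, 889 and 966 in Foxl2 KO, and 164, 270.0, 284 and 266 in Control. The DKO and Foxl2 KO values overlapped each other and stood apart from both groups that kept Foxl2. Such a separation upward was seen for 4.90% of all genes in DKO, 2.53% in Runx1 KO and 4.49% in Foxl2 KO.

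The mean log2 level of Nr0b1 was 10.30 ± 0.21 in DKO, 8.52 ± 0.26 in Runx1 KO, 9.93 ± 0.23 in Foxl2 KO and 8.01 ± 0.34 in Control (SD, n = 4 each). The difference from Control was 1.93 ± 0.19 in Foxl2 KO with an adjusted p of 3.99e-05, and 2.29 ± 0.19 in DKO with an adjusted p of 4.81e-06. DKO was higher than Runx1 KO by 1.78 ± 0.19 (3.44-fold, adjusted p = 0.000148). The differences that go with Runx1 loss and Cre were smaller and were not called, at 0.51 ± 0.19 in Runx1 KO against Control (adjusted p = 0.558) and 0.36 ± 0.19 in DKO against Foxl2 KO (95% interval -0.04 to 0.76, adjusted p = 0.973). Without Control replicate 1, the lowest value, the difference in Runx1 KO was 0.34 (adjusted p = 0.606) and that in Foxl2 KO was 1.76 (adjusted p = 8.72e-05).

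The promoters of Nr5a2 and Nr0b1, the receptors that differed most with Foxl2, were searched for 3 short motifs on both strands. RefSeq sequence (GRCm38.p6) was matched for 3 of the 4 receptors, with 4 promoters, of which Nr5a2 has 2. Each line gives the 250 bases before the annotated start, 5′ to 3′ on the gene's strand, and capitals mark a match.
Nr5a2, upstream of its 2 starts, chr1:136960449-136960698, minus strand: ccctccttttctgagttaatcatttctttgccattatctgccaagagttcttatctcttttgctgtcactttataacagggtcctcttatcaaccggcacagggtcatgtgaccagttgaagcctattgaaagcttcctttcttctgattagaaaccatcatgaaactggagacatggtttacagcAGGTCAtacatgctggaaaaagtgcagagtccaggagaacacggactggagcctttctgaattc
Nr0b1, chrX:86191525-86191774, plus strand: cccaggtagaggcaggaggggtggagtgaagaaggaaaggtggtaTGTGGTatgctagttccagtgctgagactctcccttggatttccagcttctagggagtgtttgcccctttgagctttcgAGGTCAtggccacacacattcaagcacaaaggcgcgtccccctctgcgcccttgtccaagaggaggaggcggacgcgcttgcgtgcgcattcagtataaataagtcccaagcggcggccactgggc

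The nuclear receptor half-site AGGTCA, the core of the element that NR5A proteins bind, was found once in the upstream Nr5a2 promoter, 64 to 59 bases before the start, and once in that of Nr0b1, 126 to 121 bases before it. It occurs in 14.02% of 32851 promoter windows of the same length. The RUNX core TGTGGT was found once in the Nr0b1 window, 205 to 200 bases before the start, and in 14.05% of all windows. The forkhead core TGTTTAC was in none of the windows of Nr5a2, Nr0b1 and Nr0b2, and it is in 3.17% of all. The second Nr5a2 window and that of Nr0b2 held none of the 3 motifs. The motifs do not overlap in these windows.

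Nr5a2 and Nr0b1 were opposed across the ovaries, with r = -0.92 over 16 arrays as a description. With the group means removed the correlation was 0.34, so the opposition lay between genotypes and not among ovaries of one genotype. The arrays share a platform and their scaling. The other pairs of receptors ranged from r = -0.46 for Nr5a1 with Nr5a2 to 0.64 for Nr5a1 with Nr0b1 and with Nr0b2.

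**Figure D3:**
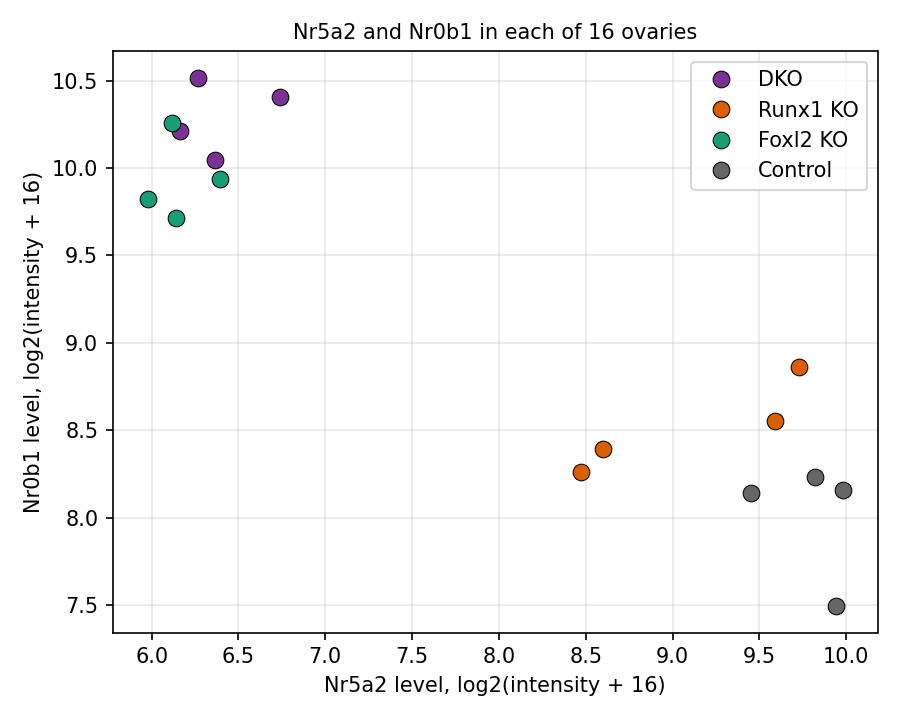
Nr5a2 level (x axis) and Nr0b1 level (y axis), both as log2(intensity + 16), in each of the 16 ovaries by genotype. DKO and Foxl2 KO ovaries lie at low Nr5a2 and high Nr0b1, and Runx1 KO and Control ovaries at high Nr5a2 and low Nr0b1.

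By mean level Nr5a1, like Nr0b1 and Nr0b2, was highest in DKO and lowest in Control. Unlike Nr0b1, Nr5a1 was higher in Runx1 KO than in Foxl2 KO. Its main probe set read 1824, 1557, 1737 and 1396 in DKO, 1324, 858, 1019 and 1204 in Runx1 KO, 807, 903, 828 and 762 in Foxl2 KO, and 570, 773, 591 and 605 in Control. Every DKO ovary lay above every ovary of the other 3 genotypes, and every Runx1 KO ovary above every Control ovary. Of all genes, 4.90% had every DKO value and 2.53% every Runx1 KO value above Control, 3.22% had every DKO value above Runx1 KO and 1.78% above Foxl2 KO. Foxl2 KO overlapped with Control, with 3 of 4 ovaries above all 4 Control ovaries, and with Runx1 KO. The mean log2 level was 10.68 ± 0.17 in DKO, 10.11 ± 0.27 in Runx1 KO, 9.71 ± 0.10 in Foxl2 KO and 9.34 ± 0.20 in Control (SD, n = 4 each).

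Nr5a1 rose 2.53-fold in DKO against Control (1.34 ± 0.15, adjusted p = 8.63e-05) and 1.95-fold in DKO against Foxl2 KO (0.96 ± 0.15, adjusted p = 0.0215). It was the only one of the 4 receptors called in the second comparison, in which 0.0605% of genes were called, and it missed the threshold in 6 of the 16 fits with 1 ovary left out, namely those without Foxl2 KO replicates 1, 3 and 4 and DKO replicates 1, 2 and 3 (adjusted p up to 0.104). In Runx1 KO against Control the difference was 0.77 ± 0.15 (1.71-fold, 95% interval 0.45 to 1.09) with an adjusted p of 0.0718, and it was called without Runx1 KO replicate 2 (0.88, adjusted p = 0.0339). In Foxl2 KO the difference from Control was 0.38 ± 0.15 (adjusted p = 0.332), and in DKO against Runx1 KO 0.57 ± 0.15 (adjusted p = 0.103). The interaction was 0.19 ± 0.21 with a 95% interval of -0.26 to 0.64.

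Averaged over both Foxl2 states, the ovaries with Cre and the Runx1-/f genotype exceeded the others by 0.87 ± 0.11 in Nr5a1 (1.82-fold, adjusted p = 0.000926). Nr5a1 was the tenth gene by p in this contrast and the only receptor called, where 0.280% of genes passed. Averaged over both Cre states, the ovaries without Foxl2 exceeded those with it by 0.47 ± 0.11 in Nr5a1 (adjusted p = 0.0183). This Nr5a1 call was lost with the mean of its probe sets (0.41, adjusted p = 0.107), the replicate block (adjusted p = 0.0511) and a 1.5-fold minimum. In that contrast 3 of the 4 receptors were called against 3.14% of all genes, with Nr0b1 at 1.85 ± 0.13 (adjusted p = 5.91e-07) and Nr5a2 at -3.18 ± 0.18 (adjusted p = 4.34e-08).

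The second Nr5a1 probe set was dimmer and noisier. It read 335, 689, 545 and 632 in DKO, 506, 316, 427 and 656 in Runx1 KO, 201, 336, 380 and 375 in Foxl2 KO, and 331, 233, 228 and 132 in Control. Tested on its own it gave 1.21 ± 0.29 in DKO against Control (adjusted p = 0.0604) and 1.01 ± 0.29 in Runx1 KO against Control (adjusted p = 0.470), both uncalled. Averaged over both Foxl2 states it gave 0.87 ± 0.21 for Runx1 loss with Cre (adjusted p = 0.193), the same size as the main probe set. The probe sets correlated at r = 0.72 over 16 arrays and at 0.10 within genotypes.

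The transgene is built on Nr5a1 sequences, so the genes beside Nr5a1 were read too. The 3 measured genes on each side on chromosome 2, by the order of the RefSeq annotation, are Lhx2, Nek6 and Psmb7 before Nr5a1 and Nr6a1, Olfml2a and Wdr38 after it. Nr6a1, the next gene, encodes germ cell nuclear factor, another orphan nuclear receptor. It read 576, 885, 866 and 824 in DKO, 751, 714, 676 and 776 in Runx1 KO, 407, 467, 336 and 369 in Foxl2 KO, and 548, 371, 413 and 242 in Control. Every ovary with Cre read above every ovary without it. Of all genes, 4.90% had every DKO value and 2.53% every Runx1 KO value above Control, and 1.78% every DKO value above Foxl2 KO. The share for all ovaries with Cre against all without it is not given here.

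Nr6a1 was higher by 1.01 ± 0.20 in DKO against Control (adjusted p = 0.0132) and by 0.94 ± 0.14 in the average over both Foxl2 states (adjusted p = 0.00803). The difference was 0.92 ± 0.20 in Runx1 KO against Control (adjusted p = 0.163) and 0.96 ± 0.20 in DKO against Foxl2 KO (adjusted p = 0.160), neither called. In Foxl2 KO, which has no Cre, it was 0.05 ± 0.20 (adjusted p = 0.957). The call in DKO against Control was lost when only these groups were fitted (adjusted p = 0.101). Of the 5 Nr6a1 probe sets, 4 gave 0.88 to 1.08 in Runx1 KO against Control and 0.68 to 1.06 in DKO against Foxl2 KO. The fifth, at intensities of 16.8 and below in every ovary, gave -0.15 and -0.07.

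The other 5 neighbours of Nr5a1, each by the probe set that stands for the gene, differed by -0.18 to 0.34 in the average over both Foxl2 states. None was called in any of the 8 contrasts. In DKO against Foxl2 KO, the dim Lhx2 gave 0.68 and another Nek6 probe set gave 0.65. In Runx1 KO against Control these gave -0.00 and 0.05. The 16 oocyte genes, relevant because Nr6a1 is known from germ cells, had a median of 0.04 in the average over both Foxl2 states. Limma called none of them there, and 1 had an unadjusted p under 0.05. Their median had opposite signs in the separate comparisons, at 0.20 in Runx1 KO against Control and -0.21 in DKO against Foxl2 KO. Limma called none in either. Runx1 loss, Cre expression and the Nr5a1 sequences of the transgene came together in DKO and Runx1 KO and cannot be told apart. How far the transgene reaches beyond Nr5a1 is not given in the sources used here, and its part in the Nr5a1 and Nr6a1 levels was not tested. The 6 measured neighbours of each of Nr5a2, Nr0b1 and Nr0b2 held no called gene in any contrast.

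**Figure D4:**
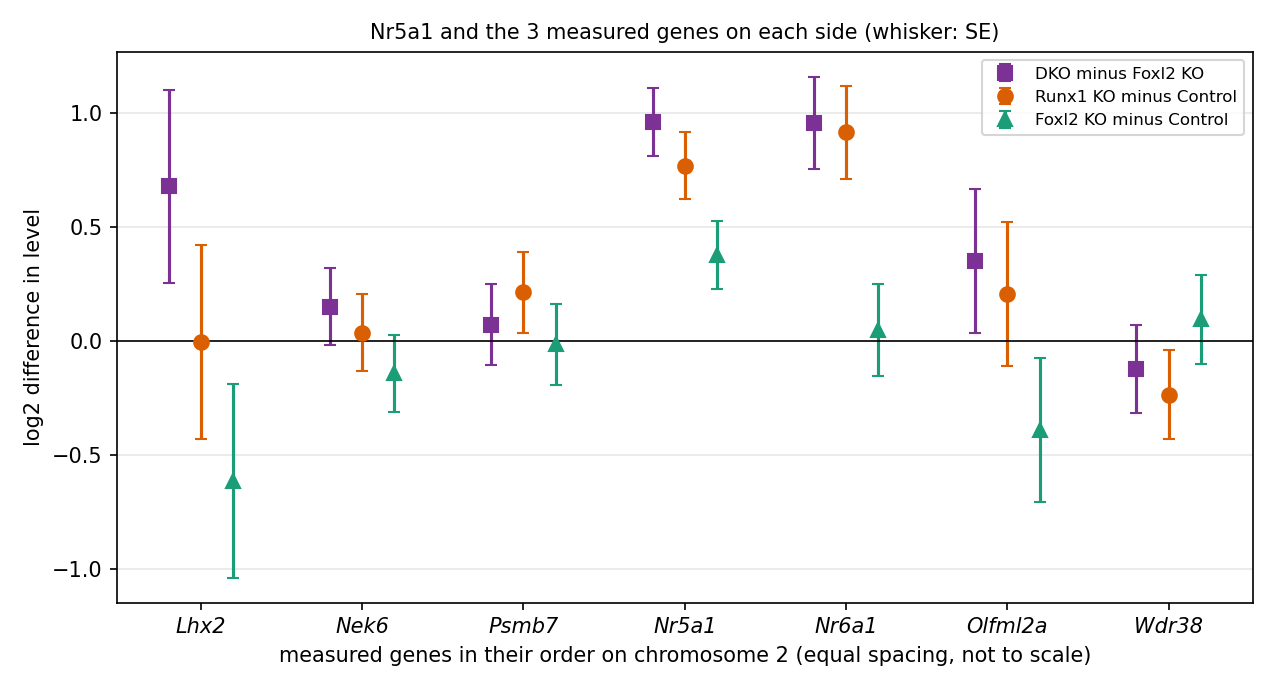
Log2 difference (± SE) of Nr5a1 and the 3 measured genes on each side, in their order on chromosome 2, for DKO minus Foxl2 KO, Runx1 KO minus Control and Foxl2 KO minus Control. Nr5a1 and its next gene Nr6a1 lie at 0.77 to 0.96 in both comparisons that add Cre with Runx1 loss, and Nr6a1 lies at 0.05 in Foxl2 KO.

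Nr0b2, which is best known from the liver, stayed low and was called in no contrast. It read 197, 99.3, 129 and 134 in DKO, 175, 72.6, 110.1 and 187 in Runx1 KO, 87.0, 144, 108 and 157 in Foxl2 KO, and 102, 72.3, 60.8 and 77.2 in Control. All pairs of groups overlapped. The differences from Control were 0.71 ± 0.26 in DKO (95% interval 0.15 to 1.27, adjusted p = 0.245), 0.64 ± 0.26 in Runx1 KO (adjusted p = 0.614) and 0.56 ± 0.26 in Foxl2 KO (adjusted p = 0.454). The summed intensity of 9 liver genes, none with a mean above the Sry probe set, was 692 to 1458 in DKO, 482 to 719 in Runx1 KO, 566 to 875 in Foxl2 KO and 495 to 817 in Control. DKO replicate 1 was highest in both Nr0b2 and this sum, whose part in the Nr0b2 values was not tested.

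Over the 4 receptors, 3 were called in DKO against Control, where 2.13% of all genes passed, 2 in Foxl2 KO against Control, where 1.52% passed, and 2 in DKO against Runx1 KO, where 0.989% passed. In Runx1 KO against Control limma called 0 of 4, where 0.121% of genes passed, and the one-way analysis of variance without moderation also called 0. All 4 had an unadjusted p under 0.05 there, as did 7.34% of all genes. No receptor was called in the interaction, where 0.0110% of genes passed. An unadjusted p under 0.05 was seen there for 1 of 4, and for 5.33% of all genes.

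Genes known as targets of NR5A proteins did not move as one group. Of 24 listed genes 17 were measured. In DKO against Control Sox9 rose, Hsd3b1 fell and 15 did not pass, and the count was the same in Foxl2 KO against Control. The median difference of the list was 0.14 in DKO and 0.30 in Foxl2 KO, where the median of all genes was 0.04 and 0.05. In Runx1 KO against Control only Hsd3b1 passed, and the list median was 0.08.

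Hsd3b1, an enzyme that makes progesterone from pregnenolone, read 402 to 769 in DKO, 830 to 1159 in Runx1 KO, 620 to 972 in Foxl2 KO and 2347 to 3217 in Control, and it was lower than in Control in every knockout ovary. Such a separation downward was seen for 2.71% of all genes in DKO and 2.23% in Foxl2 KO. The share for Runx1 KO is not given here. Hsd3b1 fell by 2.19 ± 0.20 in DKO (adjusted p = 1.71e-05), by 1.53 ± 0.20 in Runx1 KO (adjusted p = 0.00382) and by 1.86 ± 0.20 in Foxl2 KO (adjusted p = 0.000131) on the log2 scale. The gene belongs to a family of close copies that its probe set may also bind. Sox9, a regulator of Sertoli cells, read 299 to 405 in DKO, 108 to 191 in Runx1 KO, 344 to 386 in Foxl2 KO and 96.8 to 133 in Control. It rose by 1.41 ± 0.16 in DKO, with an adjusted p of 0.000115, and by 1.46 ± 0.16 in Foxl2 KO, with an adjusted p of 0.000131, against Control. In the average over both Cre states Scarb1, a receptor for lipoprotein cholesterol, also rose (0.48 ± 0.10, adjusted p = 0.0115) and Hsd17b1, an enzyme of estrogen synthesis, also fell (-1.34 ± 0.27, adjusted p = 0.0114).

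Other targets showed no call. Star, which carries cholesterol into mitochondria, read 379 to 699 in DKO and 429 to 622 in Control (-0.06 ± 0.21). Cyp11a1, which starts steroid synthesis, read 83.4 to 148 in DKO and 134 to 217 in Control (-0.66 ± 0.25, adjusted p = 0.269). Amh, the hormone of Sertoli cells, read 11.2 to 33.5 in DKO and 9.38 to 12.9 in Control, within the range of the Y-linked genes.

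**Figure D5:**
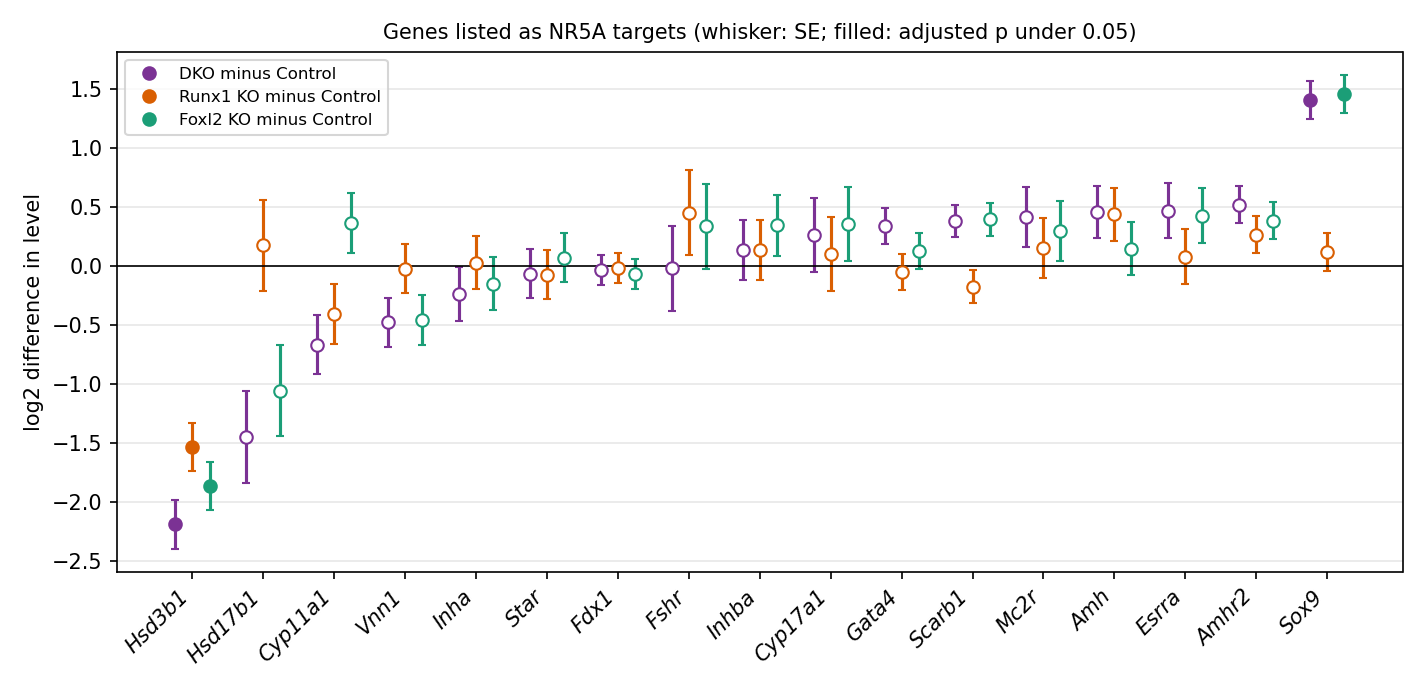
Log2 difference from Control (± SE) of the 17 measured genes listed as NR5A targets, with DKO, Runx1 KO and Foxl2 KO side by side and genes in the order of the DKO difference; filled points passed an adjusted p under 0.05 over all genes. Hsd3b1 is lower in all 3 genotypes, Sox9 is higher in DKO and Foxl2 KO, and the rest did not pass.

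Transcripts of proteins that work with the receptors were read too. Of 21 cofactors 17 were measured, among them Ncoa1 and Ctnnb1, and limma called none in any of the 8 contrasts, in which 0.0110% to 3.14% of all genes passed. In Foxl2 KO against Control 3 had an unadjusted p under 0.05, Smarcd3 (-0.77 ± 0.23, adjusted p = 0.136), Ppargc1a (0.76 ± 0.26, adjusted p = 0.234) and Alas1, an enzyme of haem synthesis that the list holds. Of 16 genes known to act upstream of Nr5a1, 14 were measured and limma called none in any contrast, with 2 at an unadjusted p under 0.05 in DKO against Control. Wt1 differed by 0.35 ± 0.12 in DKO against Control (adjusted p = 0.168) and Gata4 by 0.34 ± 0.15 (adjusted p = 0.374). Of 26 other orphan and related receptors, 23 were measured and Nr6a1 was the only one called, in DKO against Control and in the average for Runx1 loss with Cre.

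Markers of supporting cells were read beside the receptors. The pre-granulosa list had 1 gene higher and 5 lower in DKO against Control, and 2 higher and 3 lower in Foxl2 KO against Control, out of 15. The lower genes include Foxl2 itself, whose loss is set by the genotype, with Esr2 and Kitl among those that fell in both. Lef1 rose in both, and Wnt9a rose in Foxl2 KO. Of 16 Sertoli genes, 5 rose and none fell in DKO, and 5 rose and 1, Clu, fell in Foxl2 KO, with Sox9, Dhh and Dmrt1 rising in both. The called share of all genes was 2.13% in DKO and 1.52% in Foxl2 KO against Control. In Runx1 KO against Control, Fgf9 alone of these lists passed, and in DKO against Foxl2 KO, where Nr5a1 was called, limma called none of either list.

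Adrenal and Leydig cells also use Nr5a1 and Nr0b1. The summed intensity of 9 adrenal cortex genes was 1409 to 1686 in DKO, 1670 to 1984 in Runx1 KO, 1445 to 2176 in Foxl2 KO and 3415 to 4311 in Control, lower in every knockout ovary. The list holds Hsd3b1, which alone read 402 to 769 in DKO and 2347 to 3217 in Control. No other gene of the list was called in any contrast. The defining adrenal enzymes were near background, with Cyp21a1 at 47.4 to 138 in DKO and 19.5 to 91.8 in Control and Cyp11b1 at 7.79 to 41.2 in DKO and 10.4 to 34.6 in Control. The sum of 5 Leydig and theca genes, which also holds Hsd3b1, was 1706 to 2050 in DKO, 2200 to 2939 in Runx1 KO, 1755 to 2623 in Foxl2 KO and 4789 to 5821 in Control. In that list Thbs2 was also called lower, in DKO and in Foxl2 KO against Control and in the average for Foxl2 loss. The part of these cells in the receptor levels was not tested.

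The genes most like each receptor were sought among those at or above the median level, by Pearson r over the 16 arrays, as a description. For Nr5a2 they were Ephx2 (r = 0.98), which encodes soluble epoxide hydrolase, the anion exchanger Slc26a7 (0.97), the semaphorin receptor Plxnc1 (0.97), Zg16 (0.96) and Sytl4 (0.96), all of them lower in DKO and in Foxl2 KO against Control. Within genotypes their correlation with Nr5a2 was 0.22 to 0.68. For Nr0b1 they were the riboflavin transporter Slc52a3 (0.97), the alanine transaminase Gpt2 (0.95), Bmerb1 (0.94), desmoplakin, Dsp (0.94), and the kinase Prkg2 (0.93), all called higher in DKO and in Foxl2 KO, with -0.03 to 0.73 within genotypes. For Nr5a1 the values were lower, at 0.87 for Ap1s2, 0.86 for Irgq and for Bcl11b, and 0.85 for Cp, which encodes ceruloplasmin, and for Ctsh, which encodes cathepsin H. Irgq and Cp kept correlations of 0.81 and 0.59 within genotypes.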

How the data were processed

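Single newborn ovaries were used by the authors as replicates, 4 per genotype. RNA was amplified and hybridised to Affymetrix Mouse Genome 430 2.0 arrays. The deposited intensities, per the submitters' processing notes from Affymetrix Expression Console 1.2, are linear, with a mean of 500.002 in every array after trimming 2% at each end. The study's methods describe tests on log2 values normalized by Robust Multichip Average, whereas these values are linear and scaled to a common trimmed mean. The algorithm that made them is not given in the sources used here.

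Of 45101 probe sets, 64 were controls, 34945 matched 1 gene, 932 several and 9160 none. The probe set with the highest mean stood for a gene. One model with 4 group means was fitted to log2(intensity + 16) with limma 3.58.1 in R 4.3.3, with statmod 1.5.0, for 8 contrasts. Tests were two-sided and corrected after Benjamini and Hochberg across all 18194 genes. Values were plotted with matplotlib 3.10.9. The fit was tested on simulated data. Alternatives were other scalings, offsets, probe set rules, priors, array weights, the replicate block and leaving out each ovary. The number of arrays limits the precision.

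The genes named are the receptors, the 5 most correlated with each of Nr5a1, Nr5a2 and Nr0b1, 3 measured neighbours on each side, and Foxl2 and Runx1. The listed genes that are named were called or otherwise had the smallest p in the contrast described. Not every list and not every called gene of the lists is named. A few listed genes were named after their values were seen. Members, lists and motifs were chosen with earlier results of these data known.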

Additional observations from a re-analysis of the deposited data

Results flagged for a closer look

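In 2 of 32 sets of 4 values, 1 ovary lay farther from the rest than Dixon's ratio allows at the 95% level, which chance does in about 1 of 20 sets. Both were Control replicate 1. Its Nr0b1 intensity was 164 where the other Control ovaries read 266 to 284 (ratio 0.878), and its intensity of the dimmest Nr5a2 probe set was 269 where the others read 227 to 233 (ratio 0.855). The other 3 Nr5a2 probe sets gave no such value.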

How the results depend on the processing

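All calls of Nr5a2 and Nr0b1 in Foxl2 KO against Control, DKO against Control, DKO against Runx1 KO and the average for Foxl2 loss, and those of Nr5a1 in DKO against Control and the average for Runx1 loss with Cre, held in every alternative that was run, the 16 fits without 1 ovary included. The smallest Nr5a2 difference in Foxl2 KO was -2.58, with the mean of its probe sets.

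The calls of Nr5a1 near the threshold depended on the setting, and the cause was not tested. In Runx1 KO against Control it passed with quantile normalization (0.80), an offset of 50 (0.74), only genes at or above the median level (0.77, fewer genes tested) and a trended robust prior (0.77), and without 1 ovary it ranged from 0.68 to 0.88. In DKO against Runx1 KO it passed with only genes at or above the median level (0.57). In DKO against Foxl2 KO it did not pass with the mean of all probe sets (0.85), with the replicate number as a block (0.96, adjusted p = 0.104) or with only the groups compared (0.96), and without 1 ovary it ranged from 0.91 to 1.03. The average for Foxl2 loss was lost with the mean of all probe sets (0.41), the replicate block (0.47, adjusted p = 0.0511) and a 1.5-fold minimum (0.47).

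Only uncalled differences changed sign, namely the Nr5a1 interaction with the mean of all probe sets (-0.045), Nr0b2 in DKO against Runx1 KO with array weights (-0.062), and, without 1 ovary, the Nr0b1 interaction (-0.23 to 0.024), Nr0b2 in DKO against Runx1 KO (-0.16 to 0.24) and Nr0b2 in DKO against Foxl2 KO (-0.011 to 0.28).

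Replicate numbers did not pair the arrays, as 1 of 24 same-numbered pairs correlated above 0.1 after removal of group means, with a median of -0.032. The block changed no other call of the receptors, and over all genes it moved the calls to 310 in place of 388 in DKO against Control and to 15 in place of 22 in Runx1 KO against Control. Nr5a2 and Nr0b2 lay below the level filter and have no value under it, so the Nr5a2 calls were not run in that setting.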
